A study of Mus musculus with 9 samples.

Results

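Interferon-stimulated genes are the genes that cells switch on when an interferon binds its receptor. A list of 45 such genes was followed in a mouse cardiomyocyte line treated with doxorubicin and interferon gamma. Members were chosen by symbol: a member had a transcript cluster (the array probes grouped for 1 transcript) that the platform annotation gives to that gene alone, and the cluster with the highest mean stood for a gene with several. The rule found 44 of the 45 among 30050 genes. Nlrc5, an activator of class I antigen presentation genes, shares its cluster with another symbol and was not analysed here. Irf1 was the single member with more than 1 cluster.

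The cells carry the label HL-1, an immortalized mouse atrial muscle line, and were grown in dishes in medium with fetal bovine serum. The 3 groups, of 3 arrays each, were Con, given phosphate-buffered saline, DOX, given 0.3 µM doxorubicin, and DOX_IFNg, given 0.3 µM doxorubicin together with 20 ng/ml interferon gamma. Doxorubicin, an anthracycline cancer drug, damages DNA by way of topoisomerase II. A group with the cytokine and no doxorubicin was not analysed here, so interferon gamma was compared only on top of doxorubicin, and the sources used here do not say how long the cells were treated. All arrays came from 1 cell line, and the labels do not say whether replicates came from separate cultures. The p-values therefore cover only the variation among these arrays, and this may be technical variation.

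Interferon gamma binds the receptor chains Ifngr1 and Ifngr2, which carry the kinases Jak1 and Jak2, and the signal reaches genes through a DNA element called GAS. Type I interferons signal through Ifnar1 and Ifnar2 to a complex that holds Stat2 and Irf9 and binds an element called ISRE, also bound by Irf1 and its relatives. In most tissues, heart included, Irf1, the guanylate-binding proteins and Cxcl9 and Cxcl10 are among the genes that interferon gamma induces most.

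The letters searched for these elements were GAAA, then NN, then GAAA for the ISRE and TTCNNNGAA for GAS (N is any base), on both strands, in the 250 bases before the gene start in the RefSeq table of GRCm38.p6. That table held 32 of the 44 members in 37 windows, since 5 members had several starts. An ISRE match lay in 17 of the 32 members (53.1%), against 3.46% of all 27025 genes of the table, and a GAS match in 10 (31.2%), against 8.13%. Both kinds lay in 6 members, and they overlapped in 1. A match describes letters and shows no binding. Of the 4 members that passed the test with doxorubicin, Eif2ak2 is not shown. The windows below belong to the others (Gbp2, Irf7, Gbp7) and to well-known members with matches that passed it in no comparison (Irf1, Isg15, Ifit1, Cxcl10). Each reads 5′ to 3′ along the gene's strand, covers the 120 bases that end just before the start (for Cxcl10, positions -250 to -131), and has every match in capitals.
Gbp2 (chr3:142620543-142620662, + strand): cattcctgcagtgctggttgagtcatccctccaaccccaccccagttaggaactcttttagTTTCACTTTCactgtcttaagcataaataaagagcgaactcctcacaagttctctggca
Irf7 (chr7:141266425-141266544, - strand): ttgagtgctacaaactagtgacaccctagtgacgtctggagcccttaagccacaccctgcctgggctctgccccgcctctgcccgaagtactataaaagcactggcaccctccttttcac
Gbp7 (chr3:142530216-142530335, + strand): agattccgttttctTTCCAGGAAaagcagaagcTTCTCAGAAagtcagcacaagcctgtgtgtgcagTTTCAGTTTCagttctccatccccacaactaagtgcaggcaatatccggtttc
Irf1 (chr11:53769894-53770013, + strand): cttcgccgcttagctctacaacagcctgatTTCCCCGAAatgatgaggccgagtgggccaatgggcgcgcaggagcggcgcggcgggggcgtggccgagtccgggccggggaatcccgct
Isg15 (chr4:156200819-156200938, - strand): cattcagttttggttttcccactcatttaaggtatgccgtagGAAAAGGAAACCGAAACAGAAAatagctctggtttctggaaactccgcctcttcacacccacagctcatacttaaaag
Ifit1 (chr19:34640769-34640888, + strand): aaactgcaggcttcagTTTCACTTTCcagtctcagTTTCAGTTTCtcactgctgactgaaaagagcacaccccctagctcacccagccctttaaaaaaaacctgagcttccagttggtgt
Cxcl10 (chr5:92349020-92349139, - strand): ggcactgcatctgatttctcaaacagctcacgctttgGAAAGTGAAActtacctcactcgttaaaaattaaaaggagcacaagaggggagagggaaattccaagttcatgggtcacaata
Gbp2 carried 1 ISRE match, at positions -59 to -50 before its start. Gbp7 carried an ISRE match and 2 GAS matches. Eif2ak2, whose window is not shown, carried a GAS match at -178 to -170. Irf7 carried neither set of letters in its 250 bases. Irf1 carried the GAS letters TTCCCCGAA at -90 to -82, and Isg15 carried 3 ISRE matches that overlap each other. For Irf1 alone, only a window with a match was shown.

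The values are log2 expression from the RMA routine, in which a difference of 1 is a 2-fold change. The array medians ran from 4.08 to 4.17. Con replicate 1, all DOX arrays and DOX_IFNg replicates 1 and 2 shared the same highest value in the table and held 82 to 186 exactly identical values per pair. Pairs with any of the other 3 arrays held 1 to 17. The effect of this set of arrays on the members was tested by a fit with the set as a term and by a fit within the set. Of 9 measured heart muscle markers, 3 lay above the limit described below (Tnnt2, Nkx2-5 and Mef2c), while Myh6, Myl7, Nppa and Gata4 lay under it. Of 8 skeletal muscle markers, 5 lay above it, among them Myog and Myod1. Of 14 immune markers, only Cd14 did so, and of 8 endothelial markers, 0. The mean linear level of the immune markers ranged over log2 4.16 to 4.22 in Con, 4.23 to 4.31 in DOX and 4.15 to 4.23 in DOX_IFNg, with the defining marker Ptprc under the limit on all arrays. The heart muscle markers ranged over 5.53 to 5.74 in Con, 5.11 to 5.19 in DOX and 5.07 to 5.13 in DOX_IFNg, and the skeletal muscle markers over 6.65 to 6.89, 5.79 to 5.996 and 5.63 to 5.81. Such sums are carried by the brightest members. In DOX minus Con limma called 8.06% of all genes higher and 7.53% lower. It called 1 of the 9 heart muscle markers, Tnnt2, lower, and 4 of the 8 skeletal muscle markers lower. Myod1 was called higher (0.76, adjusted p = 0.0182). Of the 14 immune markers, Cd14 was called higher (0.25, adjusted p = 0.048). The fibroblast markers were the brightest list, with 5 of 8 above the limit, and ranged over 15.16 to 15.41 in Con, 14.63 to 14.86 in DOX and 14.74 to 14.77 in DOX_IFNg. Of them 4 were called lower in DOX, among them Col1a1 and Col3a1, and 2 higher, Fn1 and Thy1. These markers thus go partly against the label of an atrial muscle line. The part of these marker changes in the results below was not tested.

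Most interferon-stimulated genes gave signals no brighter than a limit set by sensory receptor genes, taken here as a stand-in for background. The comparison was with 1749 olfactory, vomeronasal and taste receptor genes, whose means over the arrays had a median of 3.96 and a 95th percentile of 4.69, called the receptor limit here. Only 3 of the 44 members (6.82%) had a mean above it, against 40.4% of all genes. These were Irf2 at 5.98, Gbp2 at 5.41 and Stat2 at 5.06. Ddx58, the RNA sensor RIG-I, lay just under it at 4.65, and the median member lay at 4.06. The lowest was Cxcl10 at 3.37, below all but 1.89% of the genes. A difference of a dim gene can be understated, because RMA compresses values near background. Levels of different genes are on a scale that is not corrected for probe affinity, so their order is approximate.

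**Figure D1:**
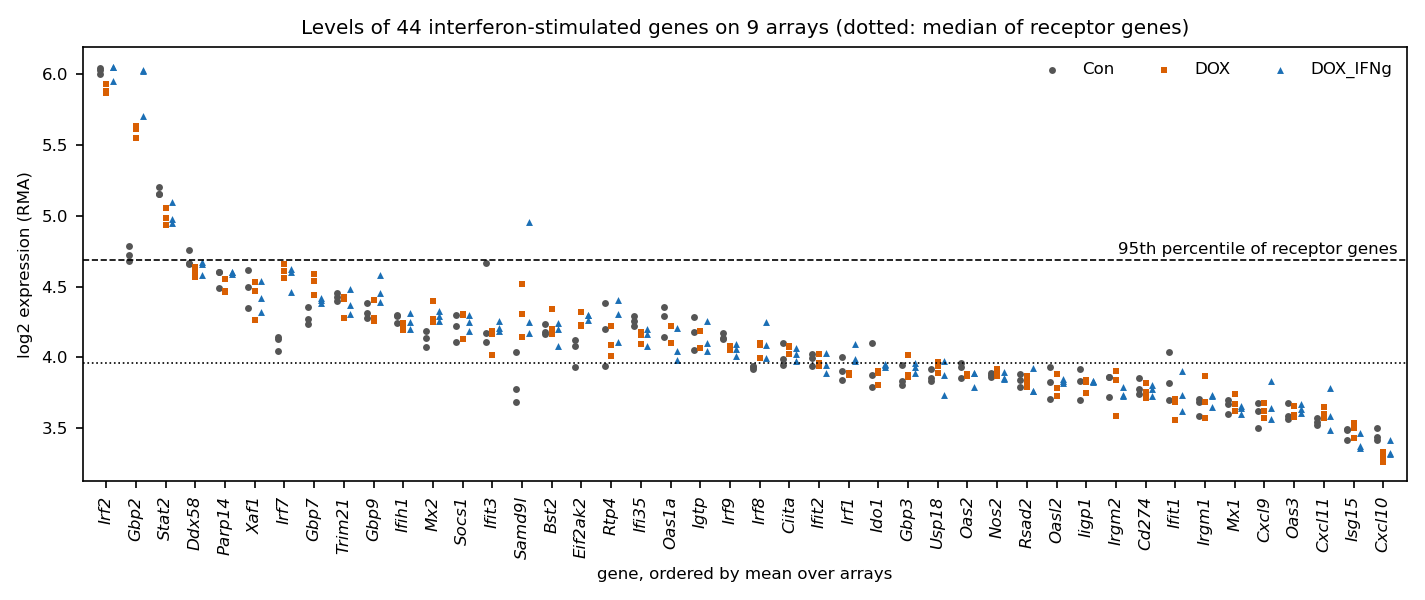
Log2 expression (y axis) of the 44 members (x axis, ordered by mean) on each of the 9 arrays, with Con as circles, DOX as squares and DOX_IFNg as triangles. The dashed line is the receptor limit of 4.69 and the dotted line the receptor median of 3.96, and only Irf2, Gbp2 and Stat2 have means above the dashed line.

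In doxorubicin-treated cells, 4 members rose and 0 fell at an adjusted p under 0.05. Limma was fitted to all 9 arrays, with Benjamini-Hochberg adjustment over 30050 genes, and called 15.6% of all genes in this comparison. It called 8.06% higher and 7.53% lower. In such bulk RNA, a gene expressed by more of the cells and a gene expressed more per cell cannot be told apart. The 4 of 44 were Gbp2 and Gbp7, GTPases of defence against microbes inside cells, Irf7, a factor that amplifies interferon production, and Eif2ak2, the RNA-activated kinase PKR. The members' median difference was -0.01, equal to that of all genes (-0.01), and their differences lay between -0.20 and 0.87. Among genes at or under the receptor limit limma called 3.78%, and among genes above it 33%. At an unadjusted p under 0.05 there were 9 members, 6 higher and 3 lower, where 27.6% of all genes passed.

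When interferon gamma was added to doxorubicin, 0 of 44 members were called by limma, as were 0% of all genes. At an unadjusted p under 0.05 there were 4 members, all higher with the cytokine (Gbp2, Irf1, Irf2 and Gbp9), where 5% of all genes passed. The median difference was 0.01 for the members and -0.01 for all genes. Each 95% interval bounds the difference in signal of 1 gene: the upper bound lay under a 1.2-fold increase for 37 members and under 1.5-fold for 43. The members past the lower of these sizes were Irf1, Gbp2, Gbp9, Ifit1, Ifit3, Rtp4 and Samd9l, and Samd9l, at 1.52-fold, also passed the higher. Of the 44 members, 41 lay at or under the receptor limit, where a change can be understated. For them the bounds hold for the array signal and not for the RNA.

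Against Con, the cells given both agents had 3 members called higher (Gbp2, Irf7 and Eif2ak2) and 0 lower, while 17.4% of all genes were called (8.01% higher and 9.41% lower). The share called was 4.33% among genes at or under the receptor limit and 36.7% above it. At an unadjusted p under 0.05 there were 8 members, 6 higher and 2 lower, where 29% of all genes passed. This comparison shares its arrays with the others, so its values stand beside them and add no separate support.

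**Figure D2:**
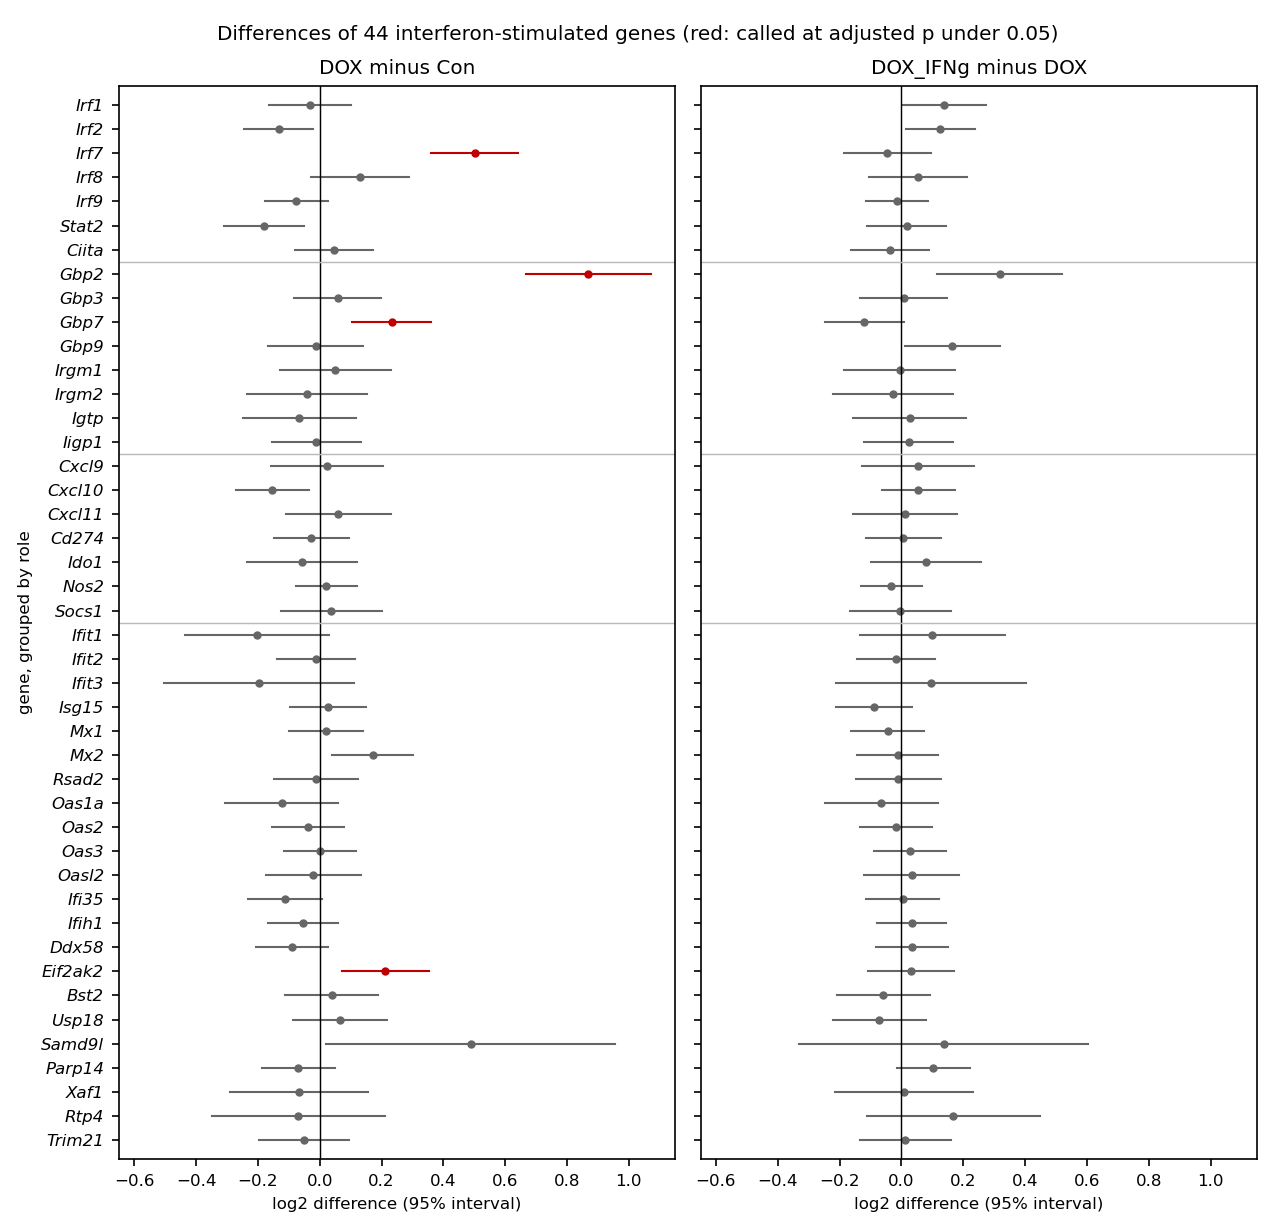
Log2 difference (x axis, point) with its 95% interval from limma (line) for each of the 44 members (y axis, grouped by role), in DOX minus Con at left and DOX_IFNg minus DOX at right. Members called are red: Gbp2, Irf7, Gbp7 and Eif2ak2 at left, and none at right.

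Limma called 15.6% of all genes in DOX minus Con and 17.4% in DOX_IFNg minus Con. Of the 7 transcription factors measured, Irf7 was the one called in these comparisons. Its values were 4.04, 4.14 and 4.13 in Con, 4.61, 4.66 and 4.56 in DOX, and 4.46, 4.60 and 4.62 in DOX_IFNg. Every treated array lay above every Con array, and the treated groups overlapped. Irf7 rose by 0.50 in DOX (SE 0.061, 3 arrays per group, 1.42-fold, limma adjusted p = 0.000775). With interferon gamma it differed from DOX by -0.05 (95% interval -0.19 to 0.09, adjusted p = 0.982). All its values lay under the receptor limit, so the size of this rise is uncertain.

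Irf1, the factor that carries much of the response to interferon gamma, was dim everywhere. Its values were 3.84, 3.90 and 4.0 in Con, 3.88, 3.87 and 3.89 in DOX, and 3.99, 3.97 and 4.10 in DOX_IFNg. The arrays given interferon gamma lay above the DOX arrays but not above all Con arrays. The difference from DOX was 0.14 (95% interval 0.01 to 0.27, limma adjusted p = 0.976), which did not pass. The other cluster of Irf1 gave values from 3.40 to 3.64, with overlap between the groups.

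Irf2, a relative that can oppose Irf1, was the brightest member. It lay at 6.04, 6.03 and 6.0 in Con, 5.88, 5.93 and 5.87 in DOX, and 6.05, 6.05 and 5.95 in DOX_IFNg. The DOX arrays lay below both other groups, with no overlap. The differences were -0.13 for DOX minus Con (adjusted p = 0.112), 0.13 for DOX_IFNg minus DOX (95% interval 0.01 to 0.24, adjusted p = 0.976) and -0.01 for DOX_IFNg minus Con (adjusted p = 0.946), and limma called none of them.

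Stat2, a component of the type I interferon complex, lay at 5.20, 5.16 and 5.15 in Con, 4.94, 4.98 and 5.05 in DOX, and 4.95, 4.98 and 5.09 in DOX_IFNg. All treated arrays were below the Con arrays. The differences from Con were -0.18 in DOX (SE 0.056, adjusted p = 0.0673) and -0.16 in DOX_IFNg (adjusted p = 0.0862), which did not pass. In DOX it was called lower where fewer genes were tested, with an adjusted p of 0.0443 among genes above the receptor limit, 0.046 among genes above the median level and 0.0365 among protein-coding genes. Without DOX_IFNg replicate 3 it was called lower in DOX_IFNg (-0.21, adjusted p = 0.0499).

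The remaining factors, Irf8, Irf9 and Ciita, had means between 4.03 and 4.09 and no value above 4.25. Irf8, a factor of myeloid cells, lay 0.18 higher in DOX_IFNg than in Con, which did not pass (limma adjusted p = 0.115). Ciita is the master activator of class II antigen presentation, and all its values lay under the receptor limit.

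Gbp2 was the member that differed most. It lay at 4.72, 4.79 and 4.68 in Con, 5.55, 5.63 and 5.61 in DOX, and 6.02, 6.03 and 5.70 in DOX_IFNg. The 3 groups did not overlap: DOX lay above Con, and DOX_IFNg above DOX, though DOX_IFNg replicate 3 lay close to the DOX arrays. Gbp2 rose by 0.87 with doxorubicin (SE 0.089, 1.83-fold, limma adjusted p = 0.000299) and lay 1.19 above Con with both agents (SE 0.089, 2.28-fold, adjusted p = 5.75e-05). Its Con arrays lay close to the receptor limit of 4.69, with replicate 3 under it, so the sizes of these rises are uncertain and may be understated.

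The step from DOX to DOX_IFNg in Gbp2 was 0.32 (SE 0.089, 95% interval 0.11 to 0.52, 1.25-fold). It had an unadjusted p of 0.00659, the lowest of the members, but did not pass over all genes (limma adjusted p = 0.966). Without DOX_IFNg replicate 3, the lowest of its group and an array outside the set with identical values, the step was 0.43 (adjusted p = 0.488). Within that set of arrays the adjusted p was 0.374, and with the set as a term the step was 0.37 (adjusted p = 0.451). Over all alternatives run, the step lay between 0.26 and 0.43 and was never called.

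Gbp7 lay at 4.24, 4.36 and 4.27 in Con, 4.59, 4.44 and 4.54 in DOX, and 4.40, 4.42 and 4.38 in DOX_IFNg. The DOX arrays lay above the others. It rose by 0.23 with doxorubicin (SE 0.056, limma adjusted p = 0.0235). This call did not survive leaving out any of 4 arrays, namely the first or last replicate of Con or of DOX, where the adjusted p reached 0.0915, nor a block on replicate number (adjusted p = 0.057). With interferon gamma added it lay 0.12 lower (95% interval -0.25 to 0.01, adjusted p = 0.976), the opposite sign to Gbp2, which also did not pass. Gbp2, Gbp3 and Gbp7 are near relatives whose probes can cross-hybridize, so values this small are uncertain.

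Gbp9 lay at 4.31, 4.39 and 4.28 in Con, 4.26, 4.28 and 4.40 in DOX, and 4.46, 4.39 and 4.58 in DOX_IFNg. The DOX and DOX_IFNg arrays overlapped at their edges, and the difference of 0.16 (95% interval 0.01 to 0.32) was not called (limma adjusted p = 0.976). Gbp3 and the immunity-related GTPases Irgm1, Irgm2, Igtp and Iigp1, which attack the vacuoles of intracellular microbes, had means between 3.69 and 4.14. Their differences between DOX_IFNg and DOX lay between -0.03 and 0.03, and the upper bounds of the intervals reached at most 1.16-fold.

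**Figure D3:**
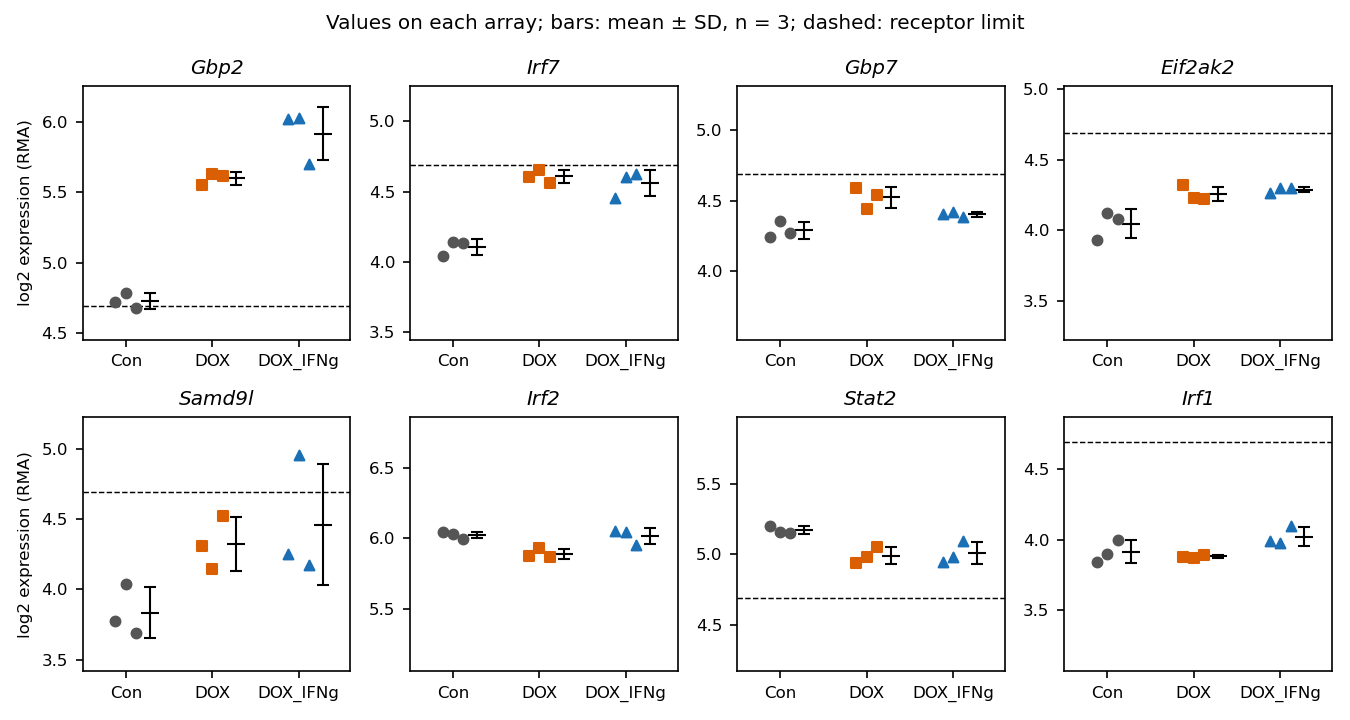
Log2 expression (y axis, each panel spanning the same range) on each array of Con, DOX and DOX_IFNg (x axis) for 8 members, with the mean ± SD of 3 arrays beside the points and the receptor limit dashed. Gbp2 steps up in both treated groups, Irf7 is higher in both treated groups alike, and Irf1 stays under the limit on all arrays.

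Chemokines, surface proteins, enzymes and the feedback inhibitor of the response, 7 members in all, gave no calls. All 7 had means at or under the receptor limit. Among all genes there, limma called 3.78% in DOX minus Con and 4.33% in DOX_IFNg minus Con. Cxcl10, a chemokine that draws T cells, lay at 3.41, 3.44 and 3.5 in Con, 3.33, 3.30 and 3.27 in DOX, and 3.32, 3.32 and 3.42 in DOX_IFNg. The DOX arrays were below the Con arrays, and the DOX_IFNg arrays overlapped both groups. With interferon gamma it differed from DOX by 0.05 (95% interval -0.06 to 0.17, limma adjusted p = 0.979). In DOX it lay 0.15 below Con (adjusted p = 0.0863), which passed only when protein-coding genes alone were tested (adjusted p = 0.0484).

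Cd274, the immune checkpoint ligand PD-L1, lay at 3.74, 3.78 and 3.85 in Con, 3.76, 3.82 and 3.72 in DOX, and 3.73, 3.78 and 3.81 in DOX_IFNg. The 3 groups overlapped, and the cytokine's difference was 0.01 (95% interval -0.12 to 0.13, adjusted p = 0.999). The chemokines Cxcl9 and Cxcl11, the tryptophan-degrading enzyme Ido1, the nitric oxide synthase Nos2 and the JAK inhibitor Socs1 had means between 3.59 and 4.23. Their differences between DOX_IFNg and DOX lay between -0.03 and 0.08, with upper bounds of at most 1.195-fold.

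All 22 antiviral effectors had means at or under the receptor limit. Among all genes there, limma called 3.78% in DOX minus Con and 4.33% in DOX_IFNg minus Con. Of these effectors, Eif2ak2 was the one called. Its values were 3.93, 4.13 and 4.08 in Con, 4.32, 4.23 and 4.22 in DOX, and 4.27, 4.30 and 4.30 in DOX_IFNg. All treated arrays lay above all Con arrays, and the treated groups overlapped. It rose by 0.21 in DOX (SE 0.061, limma adjusted p = 0.0497) and by 0.24 with both agents (adjusted p = 0.0265). The call in DOX held in the leave-one-out fit that dropped Con replicate 2 and in no other such fit (adjusted p up to 0.165), and it was lost with the replicate number as a block (0.0893). The call with both agents needed Con replicate 1 and each of the DOX_IFNg arrays, since dropping one of these raised the adjusted p to as much as 0.0814, and it was lost with the block (0.0549).

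Samd9l, an antiviral protein that restrains cell growth, had the largest spread within a group, with an SD of 0.43 in DOX_IFNg. It lay at 3.77, 4.04 and 3.69 in Con, 4.30, 4.14 and 4.52 in DOX, and 4.25, 4.95 and 4.17 in DOX_IFNg. All treated arrays lay above all Con arrays, and DOX_IFNg replicate 2 lay far above its group. The difference of 0.49 in DOX did not pass (SE 0.20, limma adjusted p = 0.162), nor did that of 0.63 with both agents (adjusted p = 0.0732). Without DOX_IFNg replicate 2, which widens the shared spread, the difference in DOX was called (adjusted p = 0.0358). Among protein-coding genes alone, that with both agents was called (0.0492).

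Isg15, a ubiquitin-like protein that is attached to other proteins during infection, lay at 3.42, 3.49 and 3.49 in Con, 3.5, 3.43 and 3.54 in DOX, and 3.38, 3.47 and 3.36 in DOX_IFNg. Ifit1, which binds viral RNA, lay at 4.04, 3.70 and 3.82 in Con, 3.71, 3.56 and 3.69 in DOX, and 3.90, 3.73 and 3.62 in DOX_IFNg. The treated groups of both genes overlapped, and with interferon gamma they differed from DOX by -0.09 (95% interval -0.21 to 0.04) and 0.10 (95% interval -0.13 to 0.33). Rtp4, a chaperone of receptors, lay at 4.38, 3.94 and 4.2 in Con, 4.09, 4.22 and 4.01 in DOX, and 4.11, 4.41 and 4.30 in DOX_IFNg. It differed by 0.17 (95% interval -0.11 to 0.45, limma adjusted p = 0.978), with overlap of all groups.

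The other 17 antiviral members, among them Ifit2 and Ifit3, the GTPases Mx1 and Mx2, the oligoadenylate synthetases Oas1a, Oas2, Oas3 and Oasl2, the RNA sensors Ifih1 and Ddx58, and Rsad2, Bst2, Usp18 and Trim21, had means between 3.62 and 4.65. Their differences between DOX_IFNg and DOX lay between -0.07 and 0.10, with the widest upper bound at 1.32-fold for Ifit3, where Con replicate 3 stood apart at 4.67 against 4.17 and 4.11. Mx2 lay 0.17 above Con in DOX (limma adjusted p = 0.0838) and 0.16 in DOX_IFNg (0.0986), and was called in both under quantile normalization (0.0404 and 0.0497). RefSeq lists Mx1, Mx2 and Cxcl11 of the reference strain as transcribed pseudogenes. Oas1a lay 0.19 below Con in DOX_IFNg (adjusted p = 0.162).

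The groups were also compared by whether their arrays overlapped. In DOX minus Con the groups did not overlap in 13 members, 7 higher and 6 lower, where 32.9% of all genes did not overlap (15.7% higher and 17.2% lower). In DOX_IFNg minus DOX this held for 7 members, 6 higher and 1 lower, where 11.2% of all genes did not overlap (4.56% higher and 6.69% lower). Those higher with the cytokine were Irf1, Irf2, Gbp2, Ido1, Ifit3 and Parp14, and Gbp7 was lower. In DOX_IFNg minus Con it held for 8 higher and 3 lower, where the share of all genes was 33% (14.5% higher and 18.5% lower).

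Of the genes upstream, 8 of 16 measured receptors, kinases and regulators had means above the limit, the receptor chain Ifngr2 and the kinases Jak1 and Jak2 among them. Ifngr2 lay at 5.21 ± 0.01 (SD, n = 3) in DOX, Jak1 at 7.78 ± 0.06 and Jak2 at 5.52 ± 0.03, while Ifngr1 lay at 4.19 ± 0.07, under the limit. Of the 16, 2 (12.5%, against 15.6% of all genes) rose in DOX, Jak1 (0.29, limma adjusted p = 0.00913) and Pias3, an inhibitor of Stat proteins (0.61, adjusted p = 0.000409), and 0 fell. In DOX_IFNg minus DOX 0 were called, with 0 at an unadjusted p under 0.05, where 5% of all genes passed. In DOX_IFNg minus Con, where 17.4% of all genes were called, 4 rose (Jak1, Pias3, Ptpn2 and Ptpn6) and 1 fell (Ptpn11), the last 3 being phosphatases. Jak1 and Pias3 stayed called whichever array was left out. Ptpn2 kept its call in 3, Ptpn6 in 2 and Ptpn11 in 4 of the 9 fits that each left out 1 array (adjusted p up to 0.107).

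Of 10 interferon ligand genes, only 1 had a mean above the receptor limit, and at or under it a change can be understated. Limma called 0 of the 10 in each comparison. Of all genes it called 15.6% in DOX minus Con, 0% in DOX_IFNg minus DOX and 17.4% in DOX_IFNg minus Con. At an unadjusted p under 0.05, 0 passed for doxorubicin alone, 0 for the cytokine on top of it, and 1 for both agents against Con. Of all genes, 27.6%, 5% and 29% passed at that level in these comparisons. Of 24 listed sensors and related factors, 19 were measured, and 4 of these had means above the receptor limit. Of the 19, 3 rose in DOX and 0 fell, a share of 15.8% beside the 15.6% of all genes. They were the kinases Tbk1 (0.35, adjusted p = 0.0130) and Ikbke (0.30, adjusted p = 0.00522), which activate Irf3 and Irf7, and the NF-kappaB subunit Rela (0.61, adjusted p = 0.0268). Tbk1 lost its call without DOX replicate 1 (adjusted p = 0.0557), and Rela kept its call in 5 of the 9 fits that each left out 1 array (adjusted p up to 0.0905 without replicate 1 or 2 of either group). With both agents 4 of the 19 (21.1%) were called higher than Con and 0 lower. Of all genes, 17.4% were called in this comparison and 8.01% called higher. The 4 were Tbk1 (0.55), Ikbke (0.42), Rela (0.58) and Tlr4, the endotoxin receptor (0.38). Rela and Tlr4 each kept this call in 4 of the 9 such fits (adjusted p up to 0.0972). Rela lost it without Con replicate 1 or 2, DOX replicate 1, or DOX_IFNg replicate 2 or 3, and Tlr4 without any Con array or without DOX_IFNg replicate 1 or 2. In DOX_IFNg minus DOX limma called 0 of the 19. At an unadjusted p under 0.05 there were 2, Tbk1 (0.20) and Ikbke (0.12), both higher, where 5% of all genes passed.

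A further 45 measured genes known to respond to interferons, outside the 44 members, were tested in the same fit. They came from a list of 58, and the rest of that list was not measured here. Only 9 of the 45 had means above the receptor limit, and at or under it a change can be understated. In DOX 4 rose and 1 fell, which is 11.1% of them beside 15.6% of all genes. Parp12, an ADP-ribosyltransferase, rose by 1.45 (SE 0.092, limma adjusted p = 2.73e-05) and Casp4, the caspase that senses endotoxin inside cells, by 1.35 (SE 0.12, adjusted p = 0.000136). Lgals3bp rose by 0.49 and Tap1, a peptide transporter of class I presentation, by 0.40, while Mov10, an RNA helicase, fell by 0.37. In DOX_IFNg minus DOX 0 of the 45 were called, and the median difference of the 45 was 0.01. At an unadjusted p under 0.05 there were 3, where 5% of all genes passed. In DOX_IFNg minus Con 5 rose and 2 fell (15.6%, beside 17.4% of all genes), the further calls being Isg20, an RNA-degrading enzyme (0.35), and Ifitm2, a membrane protein that blocks virus entry (-0.70).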

How the data were processed

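Expression was measured on 9 Affymetrix microarrays, 3 each of Con, DOX and DOX_IFNg, grouped and numbered by their labels. The log2 values per transcript cluster are those of the authors, made with RMA per the submitters' processing notes. The sources used here name no version, settings or build. That the scale is log2 was inferred from the range (2.29 to 19.9) and was not tested further. No further normalization was applied. Of 65527 clusters, 30376 had a single distinct symbol in the platform annotation, 2117 several, and 33034 were unlisted and unnamed here, which gave 30050 genes.

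Group means were fitted to all arrays with limma 3.58.1 (lmFit, eBayes) in R 4.3.3, with 6 residual and 2.41 prior degrees of freedom. Tests were two-sided and adjusted by Benjamini-Hochberg over all genes, with calls at an adjusted p under 0.05, no fold minimum and no filter. The fit was tested on simulated data. Precision is limited by having 3 arrays per group: the median member had a 95% interval of ±0.14 and the median gene ±0.19. The members, lists and alternatives were chosen with earlier results of these data known. Members given array by array were those called, those above the receptor limit, the 3 with the largest difference per comparison, and Irf1, Irf7, Gbp2, Cxcl10, Cd274, Isg15, Ifit1 and Stat2. Pathway and marker lists were counted in the same fit, and promoter letters came from RefSeq, GRCm38.p6. Alternatives changed the normalization, filter, arrays in the fit, prior, cluster rule, block and array set, and left out each array in turn.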

Additional observations from a re-analysis of the deposited data

How the results depend on the processing

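The calls of Gbp2 and Irf7 in DOX and in DOX_IFNg against Con held under every alternative that tested them, with Gbp2 between 0.77 and 0.90 in DOX and Irf7 between 0.47 and 0.56. In DOX_IFNg minus DOX, 0 members were called under any of the 19 alternative fits. The count of 4 members in DOX minus Con became 2 (Gbp2 and Irf7) with the replicate block, in a fit of only the groups compared, and within the arrays that share the highest value, where Con has 1 array that is assumed to vary like the other groups. It became 2 among genes above the receptor limit, where only 3 members were tested and Gbp2 and Stat2 were called. Leaving out single arrays gave 2 to 4. The count of 3 in DOX_IFNg minus Con became 1 (Gbp2) among genes above the receptor limit. With the replicate block that count was 2, and no other call of a member changed under the block than those of Gbp7 and Eif2ak2. Same-numbered arrays deviated together with correlations from -0.16 to 0.36, so the numbers were not taken to pair the arrays. The 3 members above the 95th percentile of the receptor genes became 5 at the 90th and 2 at the 99th percentile. With the array set as a term, Ifit1 was called lower in DOX minus Con in place of Gbp7. In the main fit this difference of Ifit1 was -0.20 (limma adjusted p = 0.251), which did not pass, and the arrays overlapped. The set holds all DOX arrays and 1 Con array.

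Among the 32 differences of single members for which alternatives were run, the signs that turned were of differences that limma called in no fit. For DOX_IFNg minus DOX these were Cd274 (-0.015 with the array set as a term, -0.012 within the set and -0.018 to 0.034 without single arrays), Eif2ak2 (-0.0011 with the set as a term), Stat2 (-0.026 within the set and -0.026 to 0.048 without single arrays) and Irf7 (-0.077 to 0.0066 without single arrays). Irf2 in DOX_IFNg minus Con was 0.0035 within the set and -0.025 to 0.024 without single arrays. The cause of these shifts was not tested. Dim signal limits the 41 members at or under the receptor limit: for those of them that were not called, a lack of RNA and a lack of response cannot be told apart. Of the 3 members above the limit, Gbp2 lay close to it in Con.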
